A study of Mus musculus with 9 samples.

Results

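Smooth muscle and pericyte contractile genes were followed in primary mouse calvarial pre-osteoblasts that overexpressed 1 of 2 hypoxia-inducible factors (HIFs). The 10 genes, chosen by symbol, were *Acta2*, *Tagln*, *Cnn1*, *Myh11*, *Myl9*, *Lmod1*, *Tpm2*, *Rgs5*, *Cspg4*, and *Pdgfrb*. All 10 were found among the 40213 symbols of the count data and all 10 were among the 14413 genes tested. Total RNA was sequenced from 9 libraries, 3 each from cells given a control adenovirus (Ad-C) or one that carries *Hif1a* (Ad-Hif1a) or *Hif2a* (Ad-Hif2a). The cells came from the skull bones of 3-day-old ICR pups labelled WT, and every group received an adenovirus on day 3. All of them were then kept under normoxia in osteogenic medium with 50 μg/ml L-ascorbic acid and 5 mM β-glycerophosphate until day 6. The cultures were primary and not sorted, and the dose of virus was not given in the sources used here. The study's methods define n as independent experiments or mice, and the sample labels do not tie a library to a culture or an animal.

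Contraction of smooth muscle rests on thin filaments of actin and tropomyosin that slide along thick filaments of myosin, with calponin and transgelin bound to the actin filament. Pericytes are the mural cells that wrap capillaries, and they are recognized by the receptor PDGFRβ, the proteoglycan NG2, and the G protein regulator RGS5. None of these genes is exclusive to mural cells, and α-smooth muscle actin in particular is made by myofibroblasts and by mesenchymal progenitors of bone. Serum response factor (SRF) with its myocardin-family partners acts through CArG boxes to drive many of the contractile genes, while HIFs bind a short hypoxia response element.

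Promoter sequence was read for the genes with a matching window in the RefSeq-derived table of build GRCm38.p6, which covers 250 bases before to 50 bases after a gene's start. Windows were found for 7 of the 10 genes, and those of *Tagln*, *Myh11*, and *Pdgfrb* were not in that table. A CArG box was present in 1 of the 7 windows, that of *Myl9*, compared with 1.63% of 32851 windows of the same length. The letters ACGTG or GCGTG, read on both strands as the core of the hypoxia response element, were present in 3 of the 7, compared with 43.8% of all windows. A few stretches of the plus strand are shown because they hold these matches before the start of a gene whose level is described here, with the matched letters in capitals. The *Myl9* stretch, chr2:156775283-156775332, holds the CArG box at bases -161 to -152 from the start. That of *Cnn1*, chr9:22099162-22099206, holds a reverse-strand match, CACGC, at bases -71 to -67. The *Lmod1* stretch, chr1:135324589-135324684, holds a match on either strand, at bases -204 to -200 and -153 to -149.
Myl9: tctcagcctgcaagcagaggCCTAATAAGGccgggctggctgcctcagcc
Cnn1: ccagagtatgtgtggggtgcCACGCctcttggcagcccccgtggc
Lmod1: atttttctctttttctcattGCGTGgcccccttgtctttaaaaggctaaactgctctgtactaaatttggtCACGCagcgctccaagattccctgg
A second match of *Cnn1* and the single match of *Cspg4* lay after the start of the gene. No match of either kind was found in the windows of *Acta2*, *Tpm2*, and *Rgs5*, which says only that the searched letters are not there. The 1 CArG match had the letters CCTAATAAGG. A CArG box that departs from the searched letters would have been missed, so its absence from these windows was not shown. These matches describe sequence and were not tested for binding.

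Library totals ranged from 14372589 to 18623403 counts. The overexpressed genes followed the labels, with *Hif1a* at 190 ± 3.45 CPM (the TMM-scaled share of a library, mean ± SD, n = 3) with Ad-C and 1831 ± 549 with Ad-Hif1a, and *Epas1*, the gene of HIF-2α, at 45.9 ± 3.59 with Ad-C and 1666 ± 736 with Ad-Hif2a. Each was also higher with the other vector, with *Epas1* at 524 ± 140 in Ad-Hif1a and *Hif1a* at 536 ± 76.5 in Ad-Hif2a. Ad-Hif1a replicate 1 and Ad-Hif2a replicate 3 stood apart from the other vector libraries on the second principal component of all genes, at 11.4 and 56.5 against -35.7 to -15.4. Transcripts of the mitochondrial genome took 2.84% and 2.71% of the counts in these 2 libraries and 3.56% to 6.17% in the other 7. Within Ad-Hif1a both measures were graded over replicates 1 to 3, at 11.4, -15.4, and -35.7 and at 2.84%, 3.56%, and 5.33%. The Ad-C libraries were at 10.2 to 15.7 on that component, a range that includes Ad-Hif1a replicate 1. The summed level of 12 osteoblast markers was 57896 to 63348 CPM in control libraries, 50695 to 54022 CPM in those of Ad-Hif1a, and 45174 to 52291 CPM in those of Ad-Hif2a. Most of this sum was *Col1a1*, at 40532 ± 2483 CPM in Ad-C, 34959 ± 2960 in Ad-Hif1a, and 31363 ± 2918 in Ad-Hif2a.

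Levels in the control cells spanned a wide range once divided by gene length. Per kilobase of merged exons, *Acta2* was highest with Ad-C at 954 ± 32.7 CPM (n = 3). *Myl9* followed at 317 ± 15.5 and *Tagln* at 277 ± 15.2, although the order of these last genes turned when the longest coding transcript was used as the length. *Tpm2* stood at 158 ± 8.99, *Cnn1* at 57 ± 5.48, and *Pdgfrb* at 45.3 ± 2.7 CPM per kilobase. The remaining genes were far lower, with *Lmod1* at 7.68 ± 0.852, *Myh11* at 4.49 ± 0.204, *Cspg4* at 3.32 ± 0.463, and *Rgs5* at 1.71 ± 0.0883. Thus the smooth muscle myosin heavy chain was found at a low level beside abundant α-smooth muscle actin. The members together took 0.392% to 0.593% of all counts in each library. Gene lengths were from the GENCODE annotation of GRCm38, an earlier build than the GRCm39 of the deposited counts.

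Broadly expressed relatives exceeded several of these genes on the same scale of CPM per kilobase in the Ad-C libraries. Non-muscle myosin heavy chain *Myh9* was at 102 ± 6.19 and *Myh10* at 28.7 ± 0.888, both above *Myh11*. Among actins, *Actg1* was at 1046 ± 26.2 and *Actb* at 782 ± 9.34, on either side of *Acta2*, but both above it when the longest coding transcript was used as the length, while smooth muscle γ-actin *Actg2* was at 34.9 ± 2.25. *Tpm4* at 351 ± 15.8 exceeded *Tpm2*, and *Cnn2* and *Cnn3* at 169 ± 1.64 and 202 ± 5.74 exceeded *Cnn1*. In contrast, *Tagln* was well above *Tagln2*, at 30.2 ± 2.67, and *Pdgfrb* above *Pdgfra*, at 11.4 ± 0.502. The actin genes are nearly identical in their coding sequence, so the assignment of reads among *Acta2*, *Actg2*, *Acta1*, and *Actc1* is uncertain. *Tagln* shares 1241 exon bases with the antisense gene *Gm48529* and 108 with *Pcsk7* on the opposite strand, and the use of strand in the counting is not given in the sources used here.

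**Figure D1:**
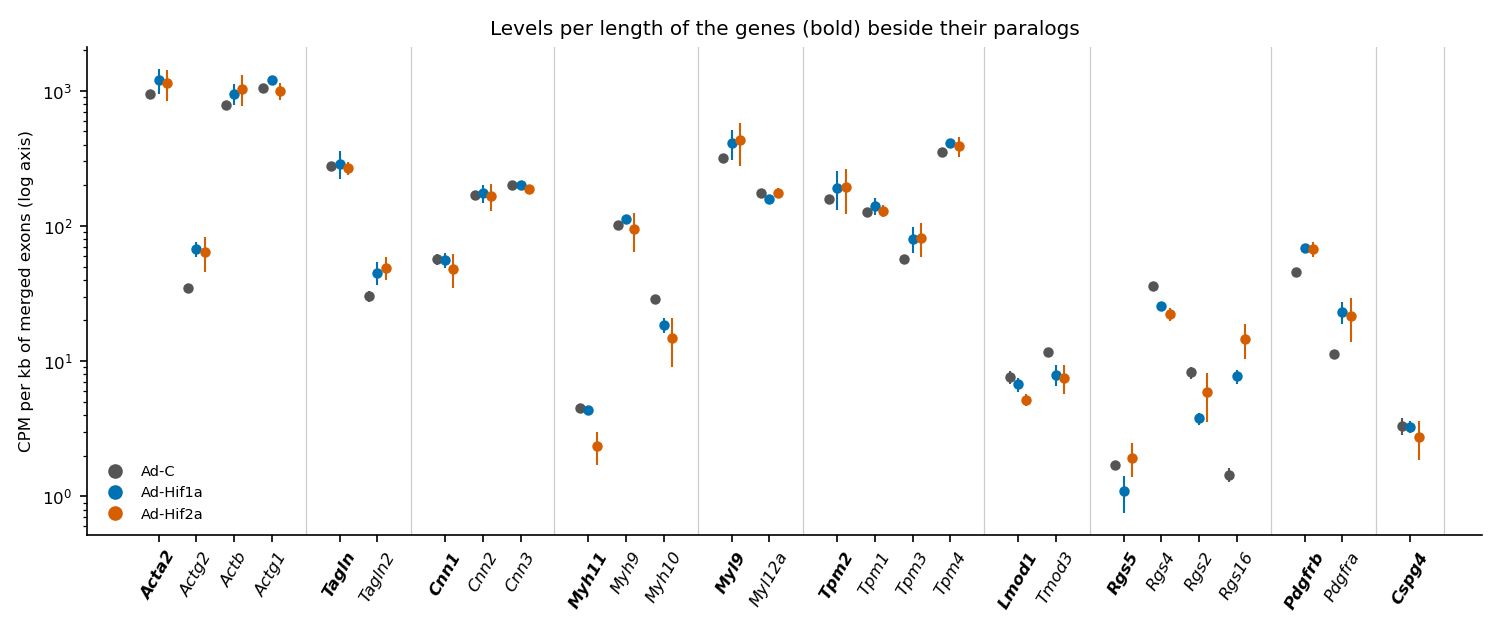
Mean level per kilobase of merged exons (vertical log axis, CPM per kb) of the smooth muscle and pericyte genes (bold) and their paralogs, with bars for the SD of 3 libraries and 1 color for each group. *Acta2* sits near *Actb* and *Actg1*, whereas *Myh11* sits below *Myh9* and *Myh10* in every group.

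To see whether either factor changed these genes, each vector was compared with Ad-C. With Ad-Hif1a, none of the 10 genes passed the threshold of an adjusted p of 0.05 in the edgeR quasi-likelihood test, whereas 11.3% of all genes tested did, 6.04% upward and 5.22% downward. At an unadjusted p under 0.05 there was 1 gene, *Pdgfrb*, against 26.2% of all genes, and DESeq2 called the same 1, against 17.1%. With Ad-Hif2a, 1 of the 10 genes passed, *Myh11*, which fell, against 15.6% of all genes in either direction, 7.87% upward and 7.72% downward. An unadjusted p under 0.05 was reached by 3, *Myh11*, *Lmod1*, and *Pdgfrb*, against 33.9%, and DESeq2 called the same 3, against 24.5%. The edgeR fit held the replicate number as a block, and with no replicate block it called *Pdgfrb* with Ad-Hif1a, against 16.5% of all genes, and *Myh11*, *Lmod1*, and *Pdgfrb* with Ad-Hif2a, against 24.0%. The median log2 fold change of the 10 genes was 0.01 with Ad-Hif1a and 0.07 with Ad-Hif2a, beside 0.01 over all genes in both comparisons. Both comparisons share the Ad-C libraries. In bulk RNA, fewer cells of a type and less RNA per cell cannot be told apart.

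**Figure D2:**
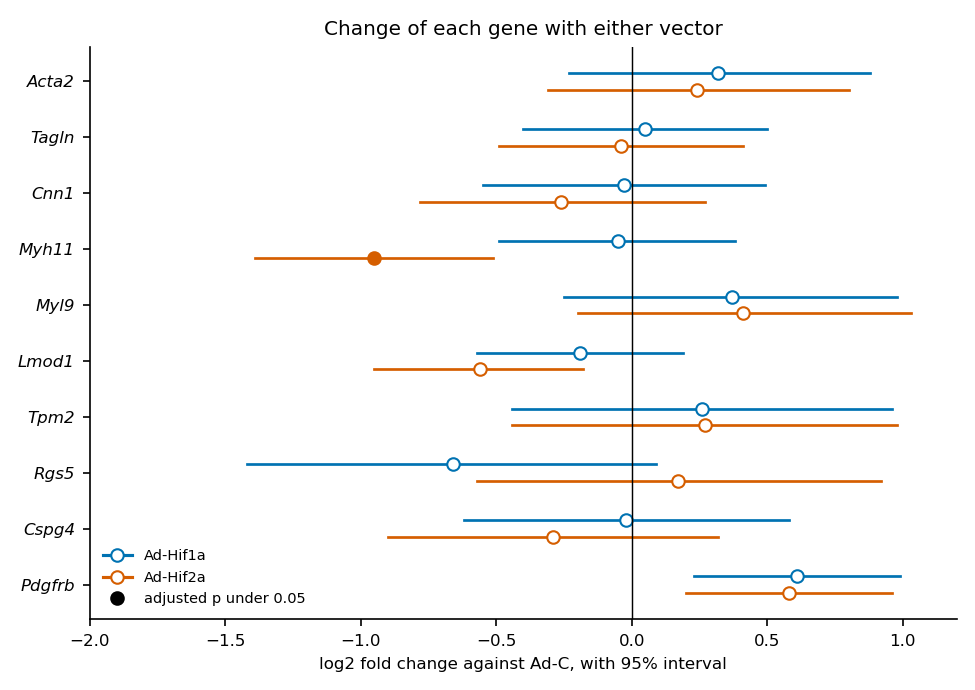
Log2 fold change of each gene (horizontal axis) in Ad-Hif1a and Ad-Hif2a against Ad-C, with 95% intervals from the edgeR fit (n = 3 libraries a group); a filled point marks an adjusted p under 0.05. Only *Myh11* with Ad-Hif2a is filled, at -0.95, and the intervals of *Pdgfrb* lie above 0 with either vector.

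*Myh11* encodes the heavy chain of smooth muscle myosin, the motor of the thick filament. Its level was 35.7, 34 and 32.6 CPM in Ad-C, 35.1, 32.4 and 31.2 CPM in Ad-Hif1a, and 18.3, 22.6 and 12.9 CPM in Ad-Hif2a replicates 1 to 3. All 3 Ad-Hif2a libraries lay below every other library, and the Ad-C and Ad-Hif1a libraries overlapped. With Ad-Hif2a it fell by 0.95 on the log2 scale (SE 0.19, 95% interval -1.39 to -0.51, edgeR adjusted p = 0.0162), to 0.518 of the Ad-C level. With Ad-Hif1a the log2 fold change was -0.05 (95% interval -0.49 to 0.38, edgeR adjusted p = 0.87). The underlying counts were 502 to 647 in the Ad-C and Ad-Hif1a libraries and 177 to 396 in the Ad-Hif2a libraries. The call was lost when any 1 Ad-C library or Ad-Hif2a replicate 1 was left out, with edgeR adjusted p-values of 0.0564 to 0.104 and log2 fold changes of -1.05 to -0.86. Ad-Hif2a replicate 3, one of the libraries that stood apart, held the lowest level, and without it the log2 fold change was -0.77 (edgeR adjusted p = 0.00377).

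*Myl9*, the regulatory light chain whose phosphorylation switches on smooth muscle myosin, was not lower in the Ad-Hif2a libraries than in the control. It was at 387, 351 and 367 CPM in Ad-C, 610, 428 and 389 CPM in Ad-Hif1a, and 425, 371 and 699 CPM in Ad-Hif2a. Every Ad-Hif1a library was above every Ad-C library, while Ad-Hif2a overlapped with the control. The log2 fold changes were 0.37 (SE 0.26, edgeR adjusted p = 0.409) with Ad-Hif1a and 0.41 (SE 0.26, edgeR adjusted p = 0.29) with Ad-Hif2a, and neither was called. Leaving out the highest library of the vector group, they were 0.13 and 0.04.

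Actin and tropomyosin of the thin filament were not called with either vector. *Acta2*, α-smooth muscle actin, was at 2172, 2030 and 2083 CPM in Ad-C, 3206, 2541 and 2117 CPM in Ad-Hif1a, and 2225, 2031 and 3222 CPM in Ad-Hif2a. The groups overlapped, and the highest library of each vector group lay far above the control range. Log2 fold changes were 0.32 (95% interval -0.23 to 0.88, edgeR adjusted p = 0.419) with Ad-Hif1a and 0.24 (95% interval -0.31 to 0.80, edgeR adjusted p = 0.477) with Ad-Hif2a, which were 0.14 and -0.06 when the high library of the group was left out. *Tpm2*, β-tropomyosin, was at 485, 464 and 433 CPM in Ad-C, 760, 500 and 416 CPM in Ad-Hif1a, and 502, 392 and 797 CPM in Ad-Hif2a. It showed the same high library in each vector group, and its log2 fold changes of 0.26 and 0.27 (SE 0.30 for both) became -0.02 and -0.18 without it.

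*Lmod1*, leiomodin 1, nucleates actin filaments in smooth muscle. Its level was 32.8, 31.7 and 26.5 CPM in Ad-C, 30.3, 24.5 and 25.2 CPM in Ad-Hif1a, and 21.1, 18.2 and 22.3 CPM in Ad-Hif2a. The Ad-Hif2a libraries lay below all others, as they did for *Myh11*. The log2 fold change with Ad-Hif2a was -0.56 (SE 0.16, 95% interval -0.95 to -0.18), which missed the threshold in edgeR (adjusted p = 0.0589), and passed it in DESeq2 (adjusted p = 0.0249) and in edgeR with no replicate block (adjusted p = 0.026). Without Ad-Hif2a replicate 3 it was -0.70 (edgeR adjusted p = 0.00554). With Ad-Hif1a it was -0.19 (95% interval -0.57 to 0.19, edgeR adjusted p = 0.488).

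The actin-binding proteins calponin 1 and transgelin were not called with either vector. *Cnn1* was at 171, 156 and 141 CPM in Ad-C, 176, 145 and 139 CPM in Ad-Hif1a, and 106, 115 and 174 CPM in Ad-Hif2a. Ad-Hif2a replicates 1 and 2 lay below every control library and replicate 3 above them. Accordingly, the log2 fold change of *Cnn1* with Ad-Hif2a was -0.26 (edgeR adjusted p = 0.433) with all libraries and -0.56 (edgeR adjusted p = 0.0111) without replicate 3. With Ad-Hif1a it was -0.03 (95% interval -0.55 to 0.49). *Tagln* was at 585, 544 and 526 CPM in Ad-C, 720, 544 and 459 CPM in Ad-Hif1a, and 502, 498 and 599 CPM in Ad-Hif2a. The groups overlapped, with log2 fold changes of 0.05 (95% interval -0.40 to 0.50) and -0.04 (95% interval -0.49 to 0.41).

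**Figure D3:**
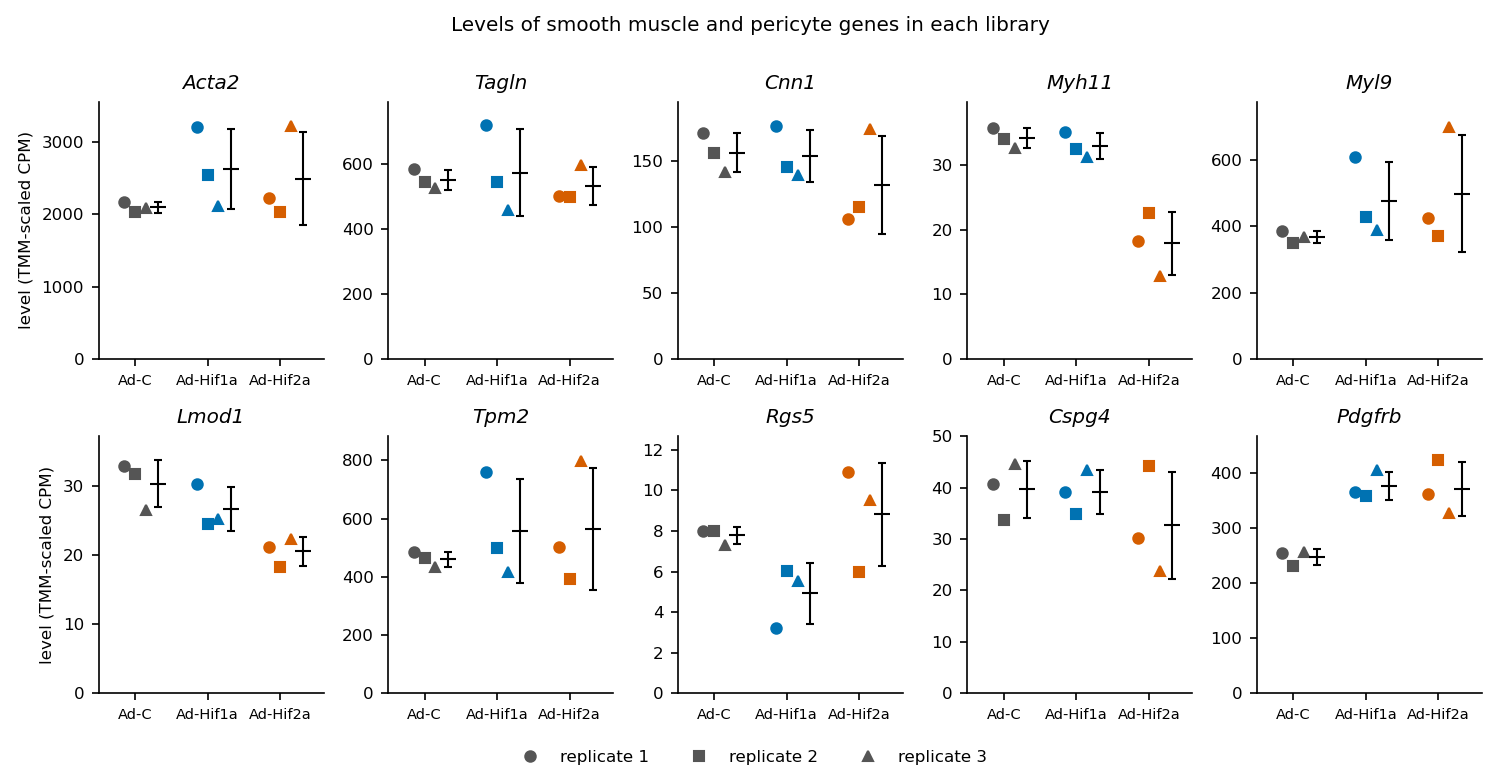
Level of each gene (vertical axis, TMM-scaled CPM from 0) in the 9 libraries, with 1 symbol for each replicate number and a bar for the mean ± SD of 3 libraries. Ad-Hif2a libraries lie lowest for *Myh11* and *Lmod1*, both vector groups lie above Ad-C for *Pdgfrb*, and 1 library of each vector group is high for *Acta2*, *Myl9*, and *Tpm2*.

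Of the pericyte genes, *Pdgfrb*, the receptor through which PDGF-BB recruits mural cells to vessels, was separated from the control with both vectors. It was at 255, 231 and 258 CPM in Ad-C, 367, 359 and 407 CPM in Ad-Hif1a, and 363, 424 and 328 CPM in Ad-Hif2a. All 6 vector libraries were above all 3 control libraries. The log2 fold changes were 0.61 (SE 0.16, 95% interval 0.23 to 0.99, edgeR adjusted p = 0.0557) with Ad-Hif1a and 0.58 (SE 0.16, 95% interval 0.20 to 0.96, edgeR adjusted p = 0.0518) with Ad-Hif2a. Both narrowly missed the threshold in edgeR and passed it in DESeq2, with adjusted p-values of 0.00732 and 0.00742, and in edgeR with no replicate block, with adjusted p-values of 0.0136 and 0.0132. Without Ad-Hif2a replicate 3 both also passed in edgeR, at 0.60 (adjusted p = 0.00226) and 0.71 (adjusted p = 0.00273).

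*Cspg4*, which encodes the NG2 proteoglycan, was at 40.7, 33.7 and 44.6 CPM in Ad-C, 39.1, 34.8 and 43.4 CPM in Ad-Hif1a, and 30.2, 44.1 and 23.7 CPM in Ad-Hif2a. The groups overlapped, and the log2 fold changes were -0.02 (95% interval -0.62 to 0.58) and -0.29 (95% interval -0.90 to 0.32). *Rgs5*, a GTPase-activating protein for heterotrimeric G proteins, was the lowest of the genes, with 57 to 185 counts per library. Its level was 8.01, 8.02 and 7.32 CPM in Ad-C, 3.23, 6.05 and 5.53 CPM in Ad-Hif1a, and 10.9, 6 and 9.54 CPM in Ad-Hif2a. All Ad-Hif1a libraries lay below the control, and those of Ad-Hif2a spread to both sides of it. The log2 fold change was -0.66 (SE 0.32, 95% interval -1.42 to 0.09, edgeR adjusted p = 0.245) with Ad-Hif1a and 0.17 (SE 0.32, edgeR adjusted p = 0.706) with Ad-Hif2a.

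Separation of the libraries without overlap was also counted beside all genes. With Ad-Hif1a, 2 of the 10 genes lay above the control in all libraries, *Myl9* and *Pdgfrb*, against 24.5% of all genes, and 1 lay below, *Rgs5*, against 25.9%, so that 3 of 10 separated against 50.4% of all genes. With Ad-Hif2a, 1 lay above, *Pdgfrb*, against 24.0%, and 2 lay below, *Myh11* and *Lmod1*, against 25.5%, again 3 of 10 against 49.5%.

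The vectors were next compared with each other. None of the 10 genes passed in edgeR, as for 0% of all genes tested, while 2 had an unadjusted p under 0.05, *Myh11* and *Rgs5*, against 2.35% of all genes. The overexpressed genes were not called here either, with log2 differences of -1.75 for *Hif1a* and 1.64 for *Epas1*, both separated in all libraries. A gene not called in this comparison is thus not shown to be alike with the 2 vectors. *Myh11* was lower with Ad-Hif2a than with Ad-Hif1a by a log2 difference of -0.89 (95% interval -1.34 to -0.45, edgeR adjusted p = 1), and DESeq2 called it with an adjusted p of 0.0457, as it did 0.132% of all genes. For *Rgs5* the log2 difference was 0.84 (95% interval 0.07 to 1.60, edgeR adjusted p = 1). *Myh11* and *Lmod1* had all Ad-Hif2a libraries below all Ad-Hif1a libraries, against 3.21% of all genes, and none lay above, against 3.07%, or 2 of 10 against 6.27% in either direction. *Pdgfrb* differed by -0.02 (95% interval -0.41 to 0.36) and *Acta2* by -0.08 (95% interval -0.64 to 0.48).

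The spread between libraries was larger in the vector groups than in Ad-C. The median SD of log2 CPM over the 10 genes was 0.08 in Ad-C, 0.24 in Ad-Hif1a, and 0.40 in Ad-Hif2a, near the values of 0.11, 0.24, and 0.37 over all genes tested. Ad-Hif1a replicate 1 was the highest of its group for 7 of the 10 genes, and Ad-Hif2a replicate 3 for 6 of the 10, compared with 41.7% and 41.3% of all genes. Relative to the mean of the other 2 libraries of its group, on the log2 CPM scale, Ad-Hif1a replicate 1 was higher by 0.74 for *Tpm2*, 0.58 for *Myl9*, 0.53 for *Tagln*, and 0.47 for *Acta2*. Ad-Hif2a replicate 3 was higher by 0.85 for *Tpm2*, 0.81 for *Myl9*, 0.66 for *Cnn1*, and 0.60 for *Acta2*. The contractile genes did not all share this pattern, as *Myh11* was 0.14 higher in the former and differed by -0.66 in the latter, and *Pdgfrb* differed by -0.06 and -0.26. The summed level of the 10 genes was 5946 and 5887 CPM in these 2 libraries and 3882 to 4615 CPM in the other 7. The part of the low mitochondrial share in these levels was not tested.

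**Figure D4:**
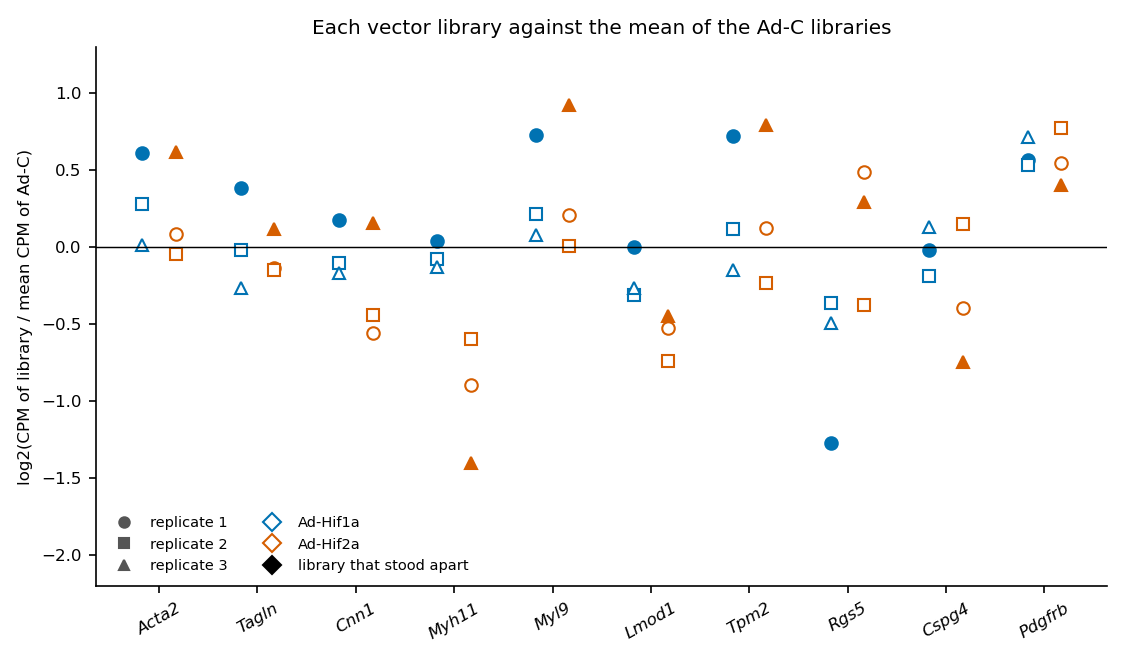
Log2 ratio of the CPM of each Ad-Hif1a and Ad-Hif2a library to the mean CPM of the 3 Ad-C libraries (vertical axis) for each gene; filled symbols mark the libraries that stood apart. The filled symbols lie highest for *Acta2*, *Tagln*, *Cnn1*, *Myl9*, and *Tpm2*, and Ad-Hif2a replicate 3 lies lowest for *Myh11*, *Cspg4*, and *Pdgfrb*.

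With both of these libraries left out, *Myh11* fell by 0.75 on the log2 scale with Ad-Hif2a (edgeR adjusted p = 8.4e-04), and *Lmod1* by 0.68 (adjusted p = 0.0019) and *Cnn1* by 0.54 (adjusted p = 0.00453). In the same fit *Pdgfrb* rose by 0.61 with Ad-Hif1a (adjusted p = 0.00214) and by 0.72 with Ad-Hif2a (adjusted p = 4.1e-04). *Acta2* was then at -0.01 and *Tpm2* at -0.12 with Ad-Hif2a, neither called. The count of called genes was 1 of 10 with Ad-Hif1a, against 27.6% of the 14559 genes tested in that fit (14.2% higher and 13.4% lower), and 4 of 10 with Ad-Hif2a, against 28.7% (14.4% higher and 14.3% lower).

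Other genes of the contractile apparatus and the actin filament included larger changes than any of the 10. Of 25 listed, 22 were tested, and 3 rose and 2 fell with Ad-Hif1a, while 5 rose and 3 fell with Ad-Hif2a. With all libraries, 11.3% of all genes were called with Ad-Hif1a and 15.6% with Ad-Hif2a. The counts of this list, the following lists, and the cell type markers stand beside these shares. *Pgm5*, a phosphoglucomutase-related protein of adherens-type junctions, went from 205 ± 8.15 CPM in Ad-C to 25.8 ± 2.51 in Ad-Hif1a and 19 ± 6 in Ad-Hif2a, log2 fold changes of -2.99 and -3.46 (edgeR adjusted p = 5.4e-04 and 2.9e-04). *Synpo2*, an actin-bundling protein of smooth and striated muscle, rose by 1.79 and 1.90, and *Csrp2*, a LIM protein of smooth muscle, by 1.85 and 2.24. *Actg2*, the closest relative of *Acta2*, rose by 0.96 (edgeR adjusted p = 0.0298) and 0.86 (adjusted p = 0.0349), from 54.3 ± 3.53 CPM to 105 ± 12.9 and 100 ± 29.4. Desmin (*Des*), the intermediate filament of muscle, fell by 0.93 and 1.23. Directions within the contractile group were thus mixed, and the median log2 fold change of the list was 0.27 with Ad-Hif1a and 0.03 with Ad-Hif2a. Without the 2 libraries that stood apart, 8 rose and 7 fell with either vector, and this count and those of the following lists in that fit stand beside the 27.6% and 28.7% of all genes called in it.

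Among 22 paralogs of the members, 19 were tested, and 1 rose and 3 fell with Ad-Hif1a, while 1 rose and 2 fell with Ad-Hif2a. *Rgs16*, of the same family as *Rgs5*, rose with either vector, by 2.43 and 3.30 on the log2 scale (edgeR adjusted p = 0.00158 and 4.1e-04), and was at 3.4 ± 0.418 CPM in Ad-C, 18.1 ± 2.23 in Ad-Hif1a, and 34.1 ± 9.95 in Ad-Hif2a. By contrast, *Rgs2* fell by 1.14 with Ad-Hif1a and *Rgs4* by 0.70 with Ad-Hif2a. With the other vector, *Rgs2* was at -0.53 and *Rgs4* at -0.50, neither called. Of the non-muscle myosins, *Myh10* fell by 0.99 with Ad-Hif2a (edgeR adjusted p = 0.0451), and *Myh9* was at -0.14 (adjusted p = 0.708). With Ad-Hif1a, *Myh10* was at -0.63 and below Ad-C in all libraries, but was not called (edgeR adjusted p = 0.178). *Tmod1* and *Tmod2*, tropomodulins that cap the slow-growing filament end and are related to leiomodin, fell with Ad-Hif1a from low levels of 2.74 ± 0.149 and 2.41 ± 0.373 CPM. Their log2 fold changes were -1.67 and -3.29 with Ad-Hif1a. With Ad-Hif2a they were -1.19 and -2.19 and just missed the threshold (edgeR adjusted p = 0.0567 and 0.0572). *Actb*, *Actg1*, *Tagln2*, *Cnn2*, *Cnn3*, *Myl12a*, *Myl12b*, *Tpm1*, *Tpm3*, and *Tpm4* were not called with either vector. Without the 2 libraries that stood apart, 2 rose and 7 fell with Ad-Hif1a, and 2 rose and 5 fell with Ad-Hif2a.

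The upstream factors and shared targets of SRF, myocardin, and YAP were counted next. Of 21 listed, 20 were tested, and 3 rose and 1 fell with either vector. *Ccn2*, the connective tissue growth factor and a target of YAP and SRF signaling, rose by 1.77 and 1.75, from 138 ± 4.29 CPM to 469 ± 8.61 and 464 ± 26.3 (edgeR adjusted p = 5.0e-04 and 4.1e-04). *Ankrd1*, another YAP target, rose by 1.07 and 0.84, and *Elk3*, a partner of SRF, by 0.56 and 0.69. *Fhl1*, a LIM-only protein, fell by 1.56 and 1.64. *Srf* itself had a log2 fold change of 0.19 with each vector and was not called. Also not called, *Mrtfa* was at -0.45 and -0.58 and *Mrtfb* at -0.86 and -1.07, with all libraries of either vector below Ad-C. In this list 6 of the 20 genes lay below Ad-C in all libraries with each vector, against 25.9% and 25.5% of all genes. Above Ad-C lay 3 with Ad-Hif1a and 4 with Ad-Hif2a, against 24.5% and 24.0%. *Myocd*, the gene of myocardin, had 0 to 13 counts per library and was not tested. Without the 2 libraries that stood apart, 4 rose and 4 fell with Ad-Hif1a, and 5 rose and 4 fell with Ad-Hif2a.

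Further pericyte and mural cell genes were partly too low to test, with 12 of 19 tested. *Vtn*, *Higd1b*, and *Kcnj8* were among those not tested, at 0 to 7 counts per library. With Ad-Hif1a 3 rose, and with Ad-Hif2a 2 rose and 1 fell. *Steap4*, a metalloreductase that marks some pericytes, rose by 4.76 and 4.49 (edgeR adjusted p = 9.5e-04 for both). It was at 5.1 ± 0.342 CPM in Ad-C, 139 ± 36.9 in Ad-Hif1a, and 118 ± 54.7 in Ad-Hif2a. *Tbx18*, a transcription factor of mural cells, rose by 1.27 and 1.29. Lower but not called, *Notch3* was at -1.18 and -0.77 and *Anpep* at -0.64 and -0.96, with every vector library below Ad-C. In this list 5 of the 12 genes lay above Ad-C in all libraries with each vector, against 24.5% and 24.0% of all genes. Below Ad-C lay 3 with Ad-Hif1a and 4 with Ad-Hif2a, against 25.9% and 25.5%. *Ndufa4l2*, a mitochondrial protein induced by hypoxia and present in pericytes, rose by 2.15 with Ad-Hif1a, while *Ednra*, an endothelin receptor of smooth muscle, fell by 1.35 with Ad-Hif2a (adjusted p = 0.0482). With the other vector, *Ndufa4l2* was at 0.80 (edgeR adjusted p = 0.084) and *Ednra* at -1.18 (adjusted p = 0.0855). Neither was called there, but both were separated from Ad-C in all libraries. Without the 2 libraries that stood apart, 3 rose and 4 fell with Ad-Hif1a, and 3 rose and 3 fell with Ad-Hif2a.

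Growth factor genes that act on mural cells were also counted. Of the 6 PDGF ligands and other PDGF receptors, *Pdgfd*, a ligand of PDGFRβ, fell by 1.68 and 2.22 on the log2 scale, and it was the only one called with either vector. *Pdgfra*, the sister receptor of *Pdgfrb*, had log2 fold changes of 1.01 and 0.89 and was not called, but without the 2 libraries that stood apart it rose by 1.10 (edgeR adjusted p = 4.8e-06) and 1.23 (adjusted p = 8.9e-07). Among 6 TGF-β ligands and receptors, *Tgfb2*, *Tgfbr1*, and *Tgfbr2* fell with both vectors, by 1.13 and 1.12, 0.86 and 0.98, and 1.07 and 1.25. *Tgfb3* had a log2 fold change of 0.55 with each vector. It was called with Ad-Hif2a (edgeR adjusted p = 0.0427) and just missed the threshold with Ad-Hif1a (adjusted p = 0.0517). Without the 2 libraries that stood apart, the PDGF list had 1 gene that rose with Ad-Hif1a and 3 with Ad-Hif2a, beside the fall of 1 gene with each.

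**Figure D5:**
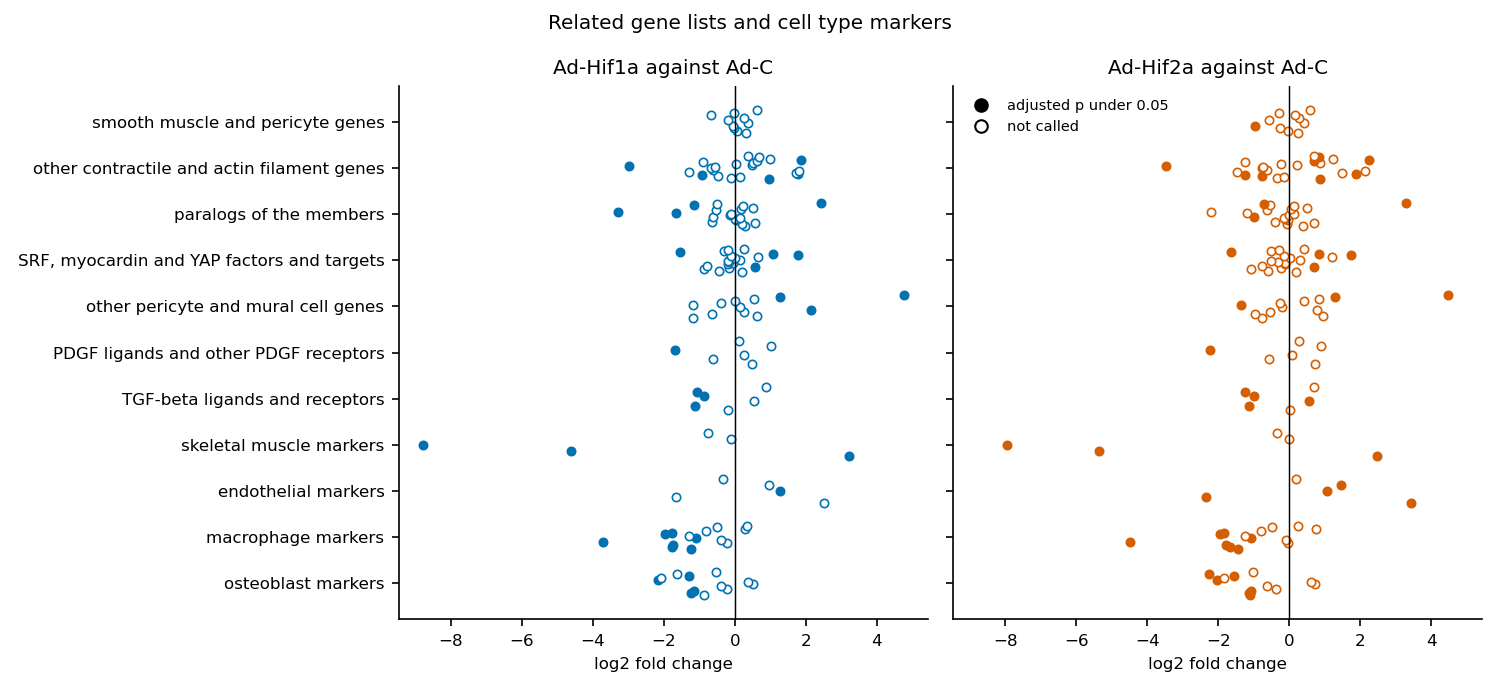
Log2 fold change against Ad-C (horizontal axis) of every tested gene of the smooth muscle and pericyte set, the related lists described here, and the cell type markers, in Ad-Hif1a (left) and Ad-Hif2a (right); filled points have an edgeR adjusted p under 0.05. The smooth muscle and pericyte genes at the top lie between -0.95 and 0.61, and the related lists hold called genes in both directions.

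Markers of other cell types differed between the groups in which the 10 genes were compared. The summed level of 18 skeletal muscle markers was 69.6 to 84.5 CPM in Ad-C, 13.1 to 17.6 in Ad-Hif1a, and 9.2 to 16.1 in Ad-Hif2a, with 5 tested, 1 called higher (*Acta1*), and 2 called lower (*Myh1* and *Myh8*) with each vector. In Ad-C most of this sum was *Myh1*, at 57.7 ± 5.16 CPM, and *Myod1* was at 0 in all groups. The summed level of 14 macrophage markers, all tested, was 3428 to 3671 CPM in Ad-C, 1485 to 1639 in Ad-Hif1a, and 1526 to 1808 in Ad-Hif2a, and 7 fell with each vector. Most of it was *Lyz2*, at 2431 ± 108 CPM in Ad-C, 1131 ± 74.1 in Ad-Hif1a, and 1172 ± 141 in Ad-Hif2a. Of the 14, 11 with Ad-Hif1a and 9 with Ad-Hif2a lay below Ad-C in all libraries, against 25.9% and 25.5% of all genes. With either vector 0 lay above, against 24.5% and 24.0%. *Aif1* was at 0.29 and 0.77 on the log2 scale, not called. The 11 endothelial markers summed to 11.3 to 13.2 CPM in Ad-C, 17.8 to 19.5 in Ad-Hif1a, and 16 to 22.3 in Ad-Hif2a, with *Cldn5* at 0 in all groups. In the vector groups most of this sum was *Erg*, at 12.6 to 13 CPM in Ad-Hif1a and 9.2 to 13.7 in Ad-Hif2a, against 4.65 to 5.77 in Ad-C. Of 5 tested, 1 rose with Ad-Hif1a (*Erg*), while 3 rose and 1 fell (*Kdr*) with Ad-Hif2a. *Kdr* was at 3.58 to 4.64 CPM in Ad-C, 0.963 to 1.62 in Ad-Hif1a, where its fall was not called, and 0.146 to 1.2 in Ad-Hif2a. Of the 12 osteoblast markers, 4 fell with Ad-Hif1a and 6 with Ad-Hif2a. *Ibsp* and *Spp1* lay above Ad-C in all libraries of either vector and were not called. The part of these other cells in the levels of *Myh11*, *Lmod1*, and *Pdgfrb* was not tested.

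Genes with a profile across the 9 libraries most like *Acta2* or *Pdgfrb* were sought in the 7747 tested genes whose average log2 CPM passed 4, leaving out the 10 genes themselves, by the root mean square difference of centred log2 CPM. *Smarcb1*, *Cc2d1a*, *Dhdds*, *Fkbp10*, and *Elp3* were closest to *Acta2*, at 0.05 to 0.06. Like *Acta2*, *Smarcb1* was highest in Ad-Hif1a replicate 1 and Ad-Hif2a replicate 3, at 78.7 and 81.1 CPM against 50.8 to 66.9 in the other libraries. *Tgfb3*, *Enah*, *Pcdhgc3*, *Synj2*, and *Nfkb2* were closest to *Pdgfrb*, each at 0.08. *Tgfb3* was at 160 to 182 CPM in Ad-C, 247 to 256 in Ad-Hif1a, and 226 to 268 in Ad-Hif2a, with no overlap between Ad-C and either vector, as for *Pdgfrb*. Because these genes were sought by their profiles in the same libraries, the shared patterns follow from the search and are not a separate result.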

How the data were processed

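Total RNA of primary mouse calvarial pre-osteoblasts was sequenced in 9 libraries prepared with the CORALL kit, 3 for each adenovirus. The values deposited by the authors are whole-number counts per gene symbol without normalization. The submitters' processing notes name bcl2fastq 2.20.0.422, fastp, STAR, Salmon, and GRCm39, and give no roles or settings. There were 40213 symbols, and 15482 of them were at 0 throughout. The 3 Ad-C totals lay between 17444224 and 18623403 counts, those of Ad-Hif1a between 16239634 and 17696512, and those of Ad-Hif2a between 14372589 and 17517897.

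The analysis used edgeR 4.0.16, with limma 3.58.1 and statmod 1.5.0 under R 4.3.3. After filterByExpr, 14413 genes were scaled by TMM. A robust quasi-likelihood fit on all 9 libraries had group and replicate number as terms, because the study names a paired test. Benjamini-Hochberg adjustment ran over all genes tested, with a threshold of 0.05. CPM values are TMM-scaled, and their log2 has a prior count of 2. Alternatives used DESeq2 1.42.0, other scaling, filters, and libraries. Leaving out the 2 libraries that stood apart was chosen after seeing the data.

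The 10 genes and the other lists were chosen with earlier results of these data known. The genes named were the 10 genes, the overexpressed genes, the paralogs, up to 4 genes of each related list with the lowest adjusted p, and the 5 genes closest to *Acta2* and to *Pdgfrb*. Some genes were picked after their values were seen. These were *Actg2*, *Srf*, *Mrtfa*, *Mrtfb*, *Myocd*, *Notch3*, *Anpep*, *Vtn*, *Higd1b*, *Kcnj8*, *Lyz2*, *Aif1*, *Kdr*, *Col1a1*, *Ibsp*, and *Spp1*. Gene lengths and exon overlaps came from GENCODE on GRCm38, and promoters from RefSeq on GRCm38.p6. One further gene list was tested and is not reported here.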

Additional observations from a re-analysis of the deposited data

How the results depend on the processing

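In the edgeR fit with the replicate number as a block, 0 of the 10 genes were called with Ad-Hif1a, 1 with Ad-Hif2a, and 0 between the vectors. With no replicate block there were 1, 3, and 0, and DESeq2 called 1, 3, and 1. With Ad-Hif1a the gene added in both was *Pdgfrb*, and with Ad-Hif2a they were *Lmod1* and *Pdgfrb*. Deviations of libraries with the same number correlated at 0.05, -0.02, and 0.08 between Ad-C and Ad-Hif1a, 0.02, -0.10, and -0.10 between Ad-C and Ad-Hif2a, and -0.31, 0.10, and -0.57 between the vectors. No pairing by number was seen. The libraries that stood apart carry different numbers and could hide a smaller shared effect, so these values cannot show that the samples were unpaired. A fit on only the 6 libraries compared called 2 with Ad-Hif1a, *Rgs5* and *Pdgfrb*. RLE factors and no composition factors each called 2 with Ad-Hif2a. The share of all genes called in those fits is not given here, so these counts have no background beside them. Without both libraries that stood apart, 1 was called with Ad-Hif1a and 4 with Ad-Hif2a, with or without the block. Leaving out each library in turn gave 0 to 1 with Ad-Hif1a, 0 to 4 with Ad-Hif2a, and 0 between the vectors. The number of all genes called ranged over these from 441 to 5330 with Ad-Hif1a (1624 with all libraries), 688 to 3309 with Ad-Hif2a (2247), and 0 to 12 between the vectors (0). Over all genes, DESeq2 called 2470, 3526, and 19, the fit with no replicate block 3452 with Ad-Hif2a and 2 between the vectors, the 6 libraries alone 4706 with Ad-Hif1a, and no filter 2 between the vectors. The fits without the libraries that stood apart called 4022, 4173, and 11 with the block and 4112, 5055, and 8 without it.

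Directions turned only for log2 fold changes that were not called. With Ad-Hif1a, *Cspg4* was at 0.00 on the 6 libraries alone, and *Tagln* at -0.09 without the libraries that stood apart and -0.12 with no block as well. With Ad-Hif2a and those libraries left out, *Acta2* was at -0.01, *Tpm2* at -0.12 (-0.03 with no block), and *Cspg4* at 0.01. Between the vectors, *Tpm2* was at -0.03 with no composition factors and -0.01 with no filter and on the 6 libraries alone. With the same 2 libraries left out it was at -0.20, *Myl9* at -0.13, *Cspg4* at 0.10, and *Pdgfrb* at 0.11, and with no block as well *Tpm2* and *Myl9* were at -0.04 and *Pdgfrb* at 0.03. The other turns came from leaving out 1 library in turn. The log2 fold changes then ranged with Ad-Hif1a from -0.13 to 0.21 for *Tagln*, -0.18 to 0.10 for *Cnn1*, -0.14 to 0.05 for *Myh11*, -0.02 to 0.53 for *Tpm2*, and -0.20 to 0.13 for *Cspg4*. With Ad-Hif2a the ranges were -0.06 to 0.40 for *Acta2*, -0.23 to 0.10 for *Tagln*, -0.18 to 0.47 for *Tpm2*, and -0.15 to 0.48 for *Rgs5*. Between the vectors they were -0.36 to 0.10 for *Acta2*, -0.27 to 0.08 for *Tagln*, -0.30 to 0.27 for *Myl9*, -0.41 to 0.27 for *Tpm2*, -0.63 to 0.01 for *Cspg4*, and -0.18 to 0.10 for *Pdgfrb*. Called genes of the other contractile list ranged in the same fits from 1 to 9 higher and 1 to 8 lower with Ad-Hif1a, and from 1 to 8 higher and 1 to 6 lower with Ad-Hif2a. The causes were not tested.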
